A study of Homo sapiens with 12 samples.

Results

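The genes described here drive or time the step of the cell cycle from G1 to S phase. They are 10 genes chosen by name, CCND1, CDK4, CCNE1, CCNE2, CDK2, CDC25A, E2F1, E2F2, E2F3 and TFDP1, and 13 of the 24526 probes of the array read them. Of the 10 genes, 8 had a probe above background and were among the 8783 genes tested, while CCNE2 and E2F1 were not above background on any array.

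D-type cyclins bind CDK4 or CDK6 in G1 and begin the phosphorylation of the retinoblastoma protein, which cyclin E with CDK2 continues. The phosphorylation releases E2F factors, which bind DNA together with a DP partner and switch on genes for DNA replication, and CCNE1, CDC25A and several E2F genes are themselves E2F targets. In prostate cancer cells the axis lies downstream of mitogens and of the androgen receptor.

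RNA was measured in LNCaP-S14 cells, a line made from the prostate cancer line LNCaP by stable overexpression of SKP2, the F-box protein that marks the CDK inhibitor p27 for degradation. The labels call the cells LNCaP, and the line comes from the study's methods. The cells received 40 µM SMIP004, the compound under study, 50 nM of the proteasome inhibitor bortezomib (BTZ), 500 nM of the topoisomerase inhibitor camptothecin (CPT), 20 µM of the CDK inhibitor roscovitine, or the vehicle DMSO. Exposure was 24 h in the label of SMIP004 and, by the methods, in the other groups. Each of the 5 groups had 2 biological samples, and each SMIP004 sample was hybridized to 2 arrays, whose values were averaged.

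Levels are log2 normalized intensities, and every change is a difference of group means on this scale with its standard error (SE) from limma, fitted to all 10 samples. Adjusted p are Benjamini-Hochberg values over all genes tested, and a gene passed at an adjusted p under 0.05. The arrays averaged between 473 and 802 units of intensity over all probes, and between 8737 and 9909 probes on each were detected, meaning a detection p under 0.01. Slide 1 carried SMIP004 and DMSO and slide 2 carried BTZ, CPT and roscovitine, so compound and slide cannot be told apart where SMIP004 or DMSO is set against BTZ, CPT or roscovitine. All comparisons with DMSO share the same 2 DMSO samples. Replicate spread was largest for roscovitine, whose 2 samples were 2-fold or more apart in 1216 genes, where the samples of the other groups were so in 1 to 10, and this spread enters the errors of every comparison. Of 9 luminal prostate markers 7 were measured, and 6 of these were detected on every DMSO array, KLK3 among them; KLK3 and KLK2 were detected on no SMIP004, BTZ or CPT array. Of 2 measured basal markers none was detected in any group, and of 6 stromal markers 1 was detected with SMIP004, BTZ and CPT and none with roscovitine and DMSO. Of 3 endothelial markers VWF was detected in every group and the other 2 in none. Of 4 leukocyte markers CD68 was detected in every group, CD14 with BTZ and CPT alone, and PTPRC and CD3E in none. CD68 stood at 8.37 with BTZ and 9.63 with CPT, against 7.41 with DMSO, and CD14 at 7.74 and 6.53, against 5.41. The summed linear level of the leukocyte markers was 256 with SMIP004, 614 with BTZ, 947 with CPT and 279 with roscovitine, against 275 with DMSO, and its part in the results was not tested. In these bulk samples, fewer cells in a phase of the cycle and less mRNA per cell cannot be told apart.

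With SMIP004, 7 of the 8 tested genes fell and none rose, and the exception was CDC25A. BTZ lowered 5, all but CCNE1, CDC25A and E2F3, and CPT lowered 6, all but CDK2 and E2F3. Among all genes tested, 58.6% passed with SMIP004, 64.5% with BTZ and 63.4% with CPT in either direction, and 29.9%, 32.8% and 31.7% passed as lower. The median change of the 8 genes was -1.99 with SMIP004, -1.76 with BTZ and -1.04 with CPT, beside medians of -0.02, -0.01 and 0 over all genes. With roscovitine none passed (limma, adjusted p) and 2 had an unadjusted p under 0.05, E2F3 as higher and TFDP1 as lower. Among all genes 7.67% passed with roscovitine and 32.3% had an unadjusted p under 0.05. Their median change with roscovitine was -0.30, against 0.02 over all genes. The count for CPT was 2 without CPT sample 1, DMSO sample 1 or DMSO sample 2, where 51.1%, 49% and 49% of all genes passed, and 3 without CPT sample 2, where 49.1% did. Without the roscovitine samples it was 8 for SMIP004 and 7 each for BTZ and CPT, where 75.4%, 77.9% and 76.7% of all genes passed.

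**Figure D1:**
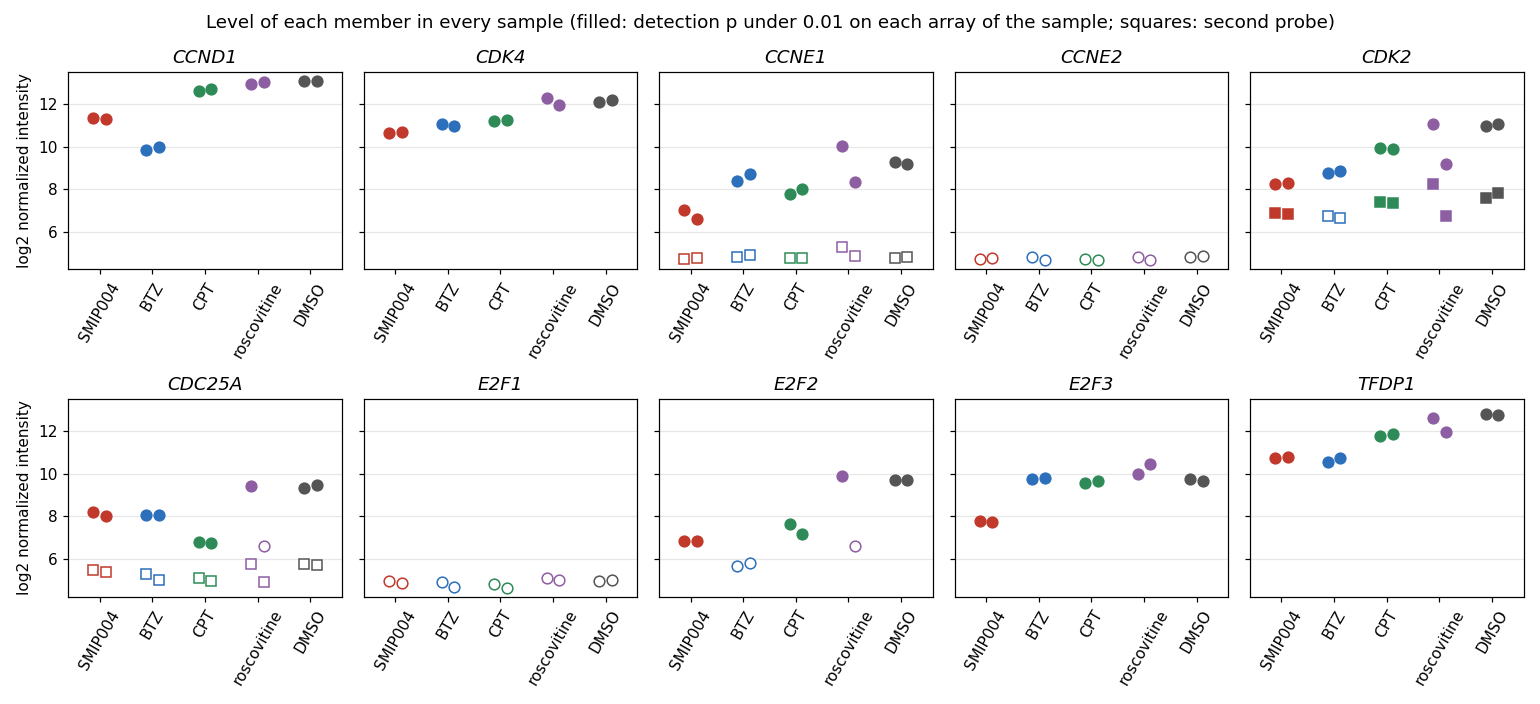
Log2 normalized intensity of each of the 10 genes in every sample, with the compounds left of DMSO; circles are the probe that stands for the gene, squares a second probe, and filled points were detected on each array of the sample. Both SMIP004 samples lie below both DMSO samples for each of the 8 detected genes. Of all 8783 genes tested, 4179 lay below both DMSO samples in SMIP004 sample 1 and 4156 in sample 2. Counting either direction, 88.8% of all genes do not overlap between SMIP004 and DMSO. E2F3 is low in the SMIP004 samples alone, and the roscovitine samples lie far apart for CCNE1, CDK2, CDC25A and E2F2.

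CCND1 encodes cyclin D1, the regulatory partner of CDK4 and CDK6. It fell with SMIP004, BTZ and CPT, and the 3 changes differed from each other. Its level was 11.34 and 11.32 in SMIP004 samples, 9.85 and 9.996 in BTZ samples, 12.61 and 12.73 in CPT samples and 12.96 and 13.03 in roscovitine samples, against 13.09 and 13.10 in DMSO samples. No 2 groups overlapped, and the order ran from BTZ at the bottom through SMIP004, CPT and roscovitine to DMSO. The change was -1.76 with SMIP004 (SE 0.115, limma, adjusted p = 1.5e-05), a 3.4-fold lower level, and -3.17 with BTZ (adjusted p = 2.09e-06), a 9.01-fold lower level. With CPT it was -0.43 (limma, adjusted p = 0.0121), and with roscovitine -0.10 (95% interval -0.37 to 0.16, adjusted p = 0.542). CCND1 passed in each of the 6 comparisons between compounds, though CPT and roscovitine (-0.32, limma, adjusted p = 0.0483) did not differ past the threshold in the model of all probes (0.0507) or with a replicate block (0.0622). It was 1.41 higher with SMIP004 than with BTZ (limma, adjusted p = 5.96e-05) and 1.34 lower with SMIP004 than with CPT on the log2 scale, that is -1.34 (adjusted p = 2.62e-05). The fall with CPT did not pass without CPT sample 1 (limma, adjusted p = 0.0729), DMSO sample 1 (0.0534) or DMSO sample 2 (0.0598).

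CDK4, the kinase that cyclin D1 activates, fell with SMIP004, BTZ and CPT and did not pass with roscovitine. It stood at 10.67 and 10.69 in SMIP004 samples, 11.05 and 10.99 in BTZ samples, 11.22 and 11.25 in CPT samples and 12.30 and 11.98 in roscovitine samples, against 12.09 and 12.18 in DMSO samples. The first 3 groups lay in this order below all roscovitine and DMSO samples, and the DMSO samples lay between the 2 roscovitine samples. The change was -1.46 with SMIP004 (SE 0.133, limma, adjusted p = 6.59e-05), -1.12 with BTZ (adjusted p = 0.000198) and -0.90 with CPT (adjusted p = 0.000732). With roscovitine it was 0.01 (95% interval -0.30 to 0.31). Between compounds CDK4 was lower with SMIP004 than with CPT (-0.56, limma, adjusted p = 0.00637), while the difference of -0.34 between SMIP004 and BTZ did not pass (95% interval -0.65 to -0.035, adjusted p = 0.0639).

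The RefSeq promoter of CDK4 is shown because it holds 3 E-boxes. An E-box here is the 6-base site CACGTG, which MYC and other factors of its class can bind. MYC fell with SMIP004, BTZ and CPT, by values given among the regulators of CCND1, and a link to CDK4 was not tested. The 250 bases before the start site are written 5′ to 3′ on the gene's strand, with the E-boxes in capitals, from the minus strand of GRCh38.p14 at chr12:57752311-57752560.
CDK4 promoter: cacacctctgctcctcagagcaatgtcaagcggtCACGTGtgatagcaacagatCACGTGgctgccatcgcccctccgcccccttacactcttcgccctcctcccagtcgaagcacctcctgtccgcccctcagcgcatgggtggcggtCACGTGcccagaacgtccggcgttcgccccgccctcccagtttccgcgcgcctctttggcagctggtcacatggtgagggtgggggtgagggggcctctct
The E-boxes begin 216, 196 and 101 bases before the start site. Of 35116 promoters of the same table, 6.34% hold at least 1 E-box in these 250 bases and 0.0797% hold at least 3. Of the other genes here found in that table, E2F3 alone holds an E-box, 80 bases before the second of its start sites. E2F3 changed by -1.94 with SMIP004, 0.08 with BTZ and -0.09 with CPT, and MYC fell with all 3. TFDP1 fell with the same 3 compounds as CDK4 and holds no E-box. A role of the E-boxes in these changes was not tested. A match is a stretch of letters, and binding was not measured.

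CCNE1 encodes cyclin E1, the G1/S partner of CDK2, and its group mean was lowest with SMIP004. Its detected probe, ILMN_2374425, stood at 6.99 and 6.57 in SMIP004 samples, 8.40 and 8.70 in BTZ samples, 7.76 and 8.02 in CPT samples and 10.03 and 8.32 in roscovitine samples, against 9.28 and 9.19 in DMSO samples. SMIP004, BTZ and CPT samples were all below both DMSO samples, and the roscovitine samples lay on either side of them. The change was -2.45 with SMIP004 (SE 0.466, limma, adjusted p = 0.00254) and -1.35 with CPT (adjusted p = 0.0343). With BTZ it was -0.69 and did not pass (adjusted p = 0.227), although it did without the roscovitine samples (limma, adjusted p = 0.00149). SMIP004 and BTZ differed directly, by -1.76 (limma, adjusted p = 0.0147), and SMIP004 and CPT by -1.11 (95% interval -2.18 to -0.03, adjusted p = 0.0662). The fall with CPT did not pass when any 1 of the BTZ, CPT or DMSO samples was left out (limma, adjusted p between 0.0546 and 0.138). The other probe of CCNE1, ILMN_1733419, was detected on no array and read between 4.70 and 5.29 in all samples.

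CCNE2, the gene of cyclin E2, was read by 1 probe, ILMN_1651260, between 4.63 and 4.84 in the 10 samples. It was not above background on any array, so no change is given.

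CDK2, the kinase of S phase entry, had 2 probes above background that differed in the size of the change. ILMN_1665559 stood at 8.23 and 8.27 in SMIP004 samples, 8.77 and 8.85 in BTZ samples, 9.94 and 9.90 in CPT samples and 11.07 and 9.18 in roscovitine samples, against 10.96 and 11.05 in DMSO samples. The 3 other compounds lay below both DMSO samples, in the order SMIP004, BTZ, CPT, and the roscovitine samples lay on either side of the CPT samples. The change by this probe was -2.76 with SMIP004 (SE 0.487, limma, adjusted p = 0.00176) and -2.20 with BTZ (adjusted p = 0.00463), and with CPT it was -1.08 and did not pass (adjusted p = 0.0835), although it did without the roscovitine samples (adjusted p = 9.35e-07). SMIP004 lay 1.68 below CPT on the log2 scale (-1.68, limma, adjusted p = 0.016). The dimmer probe, ILMN_1653443, read 6.88 and 6.84 in SMIP004 samples, 6.71 and 6.63 in BTZ samples, 7.40 and 7.36 in CPT samples and 8.26 and 6.75 in roscovitine samples, against 7.60 and 7.81 in DMSO samples. Its samples fell on the same sides of DMSO as those of the brighter probe. Fitted over all 11111 probes kept, it changed by -0.85 with SMIP004 (SE 0.396, limma, adjusted p = 0.0992), and it was at least 1.83-fold lower with BTZ, where it was not above background (adjusted p = 0.0487). Among all probes 58.3% passed with SMIP004 and 64.6% with BTZ.

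CDC25A encodes the phosphatase that removes inhibitory phosphates from CDK2, and it was lowest with CPT. Its detected probe, ILMN_1711005, stood at 8.22 and 8.03 in SMIP004 samples, 8.05 in both BTZ samples, 6.77 and 6.76 in CPT samples and 9.41 and 6.59 in roscovitine samples, against 9.34 and 9.50 in DMSO samples. All SMIP004, BTZ and CPT samples were below both DMSO samples, and the second roscovitine sample was not above background and was the lowest of all 10. The change was -2.66 with CPT (SE 0.72, limma, adjusted p = 0.0126). It was -1.30 with SMIP004 (adjusted p = 0.155) and -1.37 with BTZ (adjusted p = 0.127), and both passed without the roscovitine samples (limma, adjusted p = 5.18e-07 and 2.47e-07). The fall with CPT did not pass without CPT sample 1 (limma, adjusted p = 0.0553), CPT sample 2 (0.0578), DMSO sample 1 (0.051) or DMSO sample 2 (0.0611). The other probe of CDC25A, ILMN_1733396, was detected on no array and read between 4.90 and 5.76.

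E2F1 and E2F2 encode activator E2Fs. E2F1 was read by 1 probe, ILMN_2051469, between 4.64 and 5.08, and was not above background on any array. E2F2 stood at 6.84 and 6.82 in SMIP004 samples, 5.66 and 5.81 in BTZ samples, 7.64 and 7.16 in CPT samples and 9.90 and 6.60 in roscovitine samples, against 9.73 and 9.72 in DMSO samples. All samples of SMIP004, BTZ and CPT and the second roscovitine sample lay far below DMSO, and the first roscovitine sample lay just above it. E2F2 changed by -2.89 with SMIP004 (SE 0.846, limma, adjusted p = 0.0188), a 7.43-fold lower level, and by -2.33 with CPT (adjusted p = 0.041). With BTZ it was not above background on either array and was at least 7.44-fold lower (limma, adjusted p = 0.0037). With SMIP004 E2F2 did not pass when any 1 of the SMIP004 or DMSO samples was left out. With CPT it did not pass when any 1 of the SMIP004, BTZ, CPT or DMSO samples was left out. Over all samples left out in turn, its change ran from -2.901 to -2.884 with SMIP004 and from -2.57 to -2.081 with CPT. Without the roscovitine samples the changes of E2F2 with SMIP004 and CPT had adjusted p of 8.45e-09 and 3.1e-08 (limma).

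The promoters of CDC25A and E2F2 are shown because both genes are E2F targets by common knowledge and both hold the same 8-base E2F motif at nearly the same place. The motif searched was TTTCCCGC, TTTCGCGC, TTTGCCGC or TTTGGCGC on either strand, and it is in capitals below. CDC25A lies on the minus strand of GRCh38.p14 at chr3:48188418-48188667 and E2F2 on the minus strand at chr1:23531234-23531483, and the 250 RefSeq bases before each start site are written 5′ to 3′ on the gene's strand.
CDC25A promoter: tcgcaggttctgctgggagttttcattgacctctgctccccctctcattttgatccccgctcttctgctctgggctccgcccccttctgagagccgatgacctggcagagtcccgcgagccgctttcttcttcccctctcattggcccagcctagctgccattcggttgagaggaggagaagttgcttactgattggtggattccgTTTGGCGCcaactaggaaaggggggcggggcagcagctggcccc
E2F2 promoter: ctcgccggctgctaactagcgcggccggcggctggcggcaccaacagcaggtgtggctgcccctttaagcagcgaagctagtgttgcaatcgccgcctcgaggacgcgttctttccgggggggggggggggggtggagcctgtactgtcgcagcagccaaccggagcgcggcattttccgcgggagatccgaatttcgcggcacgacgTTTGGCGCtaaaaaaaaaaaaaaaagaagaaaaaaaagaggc
The motif begins 44 bases before the start site in CDC25A and 42 bases before it in E2F2. In windows of 300 bases, which add the first 50 of the transcript, 5 of the 7 genes found in the promoter table hold it. These are CDC25A, E2F1, E2F2, E2F3 and TFDP1, and CDK4 and CCNE1 do not hold it, where 3.31% of all promoters do. A gene counted if any of its windows held the motif (8 windows for the 7 genes), while the 3.31% counts each promoter. The genes were chosen by name, several as E2F genes or known targets, so this share is no test of them. CCND1, CCNE2 and CDK2 were not matched. A match is again no measure of binding.

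E2F3, another activator E2F, fell with SMIP004 and did not pass with any other compound. It stood at 7.78 and 7.73 in SMIP004 samples, 9.76 and 9.79 in BTZ samples, 9.55 and 9.67 in CPT samples and 10.01 and 10.49 in roscovitine samples, against 9.75 and 9.64 in DMSO samples. Both SMIP004 samples lay below all others, the CPT samples overlapped with DMSO, and the BTZ and roscovitine samples lay above it. The change was -1.94 with SMIP004 (SE 0.163, limma, adjusted p = 4.36e-05), a 3.85-fold lower level. It was 0.08 with BTZ (95% interval -0.30 to 0.45), -0.09 with CPT (95% interval -0.46 to 0.29) and 0.55 with roscovitine (95% interval 0.18 to 0.93, limma, adjusted p = 0.07). The difference between SMIP004 and each of them, which lay on the other slide, passed too: -2.02 from BTZ (limma, adjusted p = 5.59e-05), -1.86 from CPT (2.9e-05) and -2.50 from roscovitine (1.5e-05). The sign of the BTZ value turned to -0.20 when arrays were scaled to 1 median in place of quantiles, where it did not pass either.

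TFDP1 encodes DP1, the partner with which E2F1, E2F2 and E2F3 bind DNA, and it fell with SMIP004, BTZ and CPT. It stood at 10.76 and 10.78 in SMIP004 samples, 10.57 and 10.74 in BTZ samples, 11.77 and 11.86 in CPT samples and 12.62 and 11.99 in roscovitine samples, against 12.82 and 12.80 in DMSO samples. Every treated sample was below both DMSO samples, with SMIP004 and BTZ lowest and close together. The change was -2.04 with SMIP004 (SE 0.193, limma, adjusted p = 7.94e-05), -2.15 with BTZ (adjusted p = 4.91e-05), -0.99 with CPT (adjusted p = 0.00277) and -0.50 with roscovitine (adjusted p = 0.124). SMIP004 and BTZ differed by 0.12 (95% interval -0.33 to 0.56), and both were lower than CPT, by -1.05 and -1.16 (limma, adjusted p = 0.00173 and 0.000929).

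**Figure D2:**
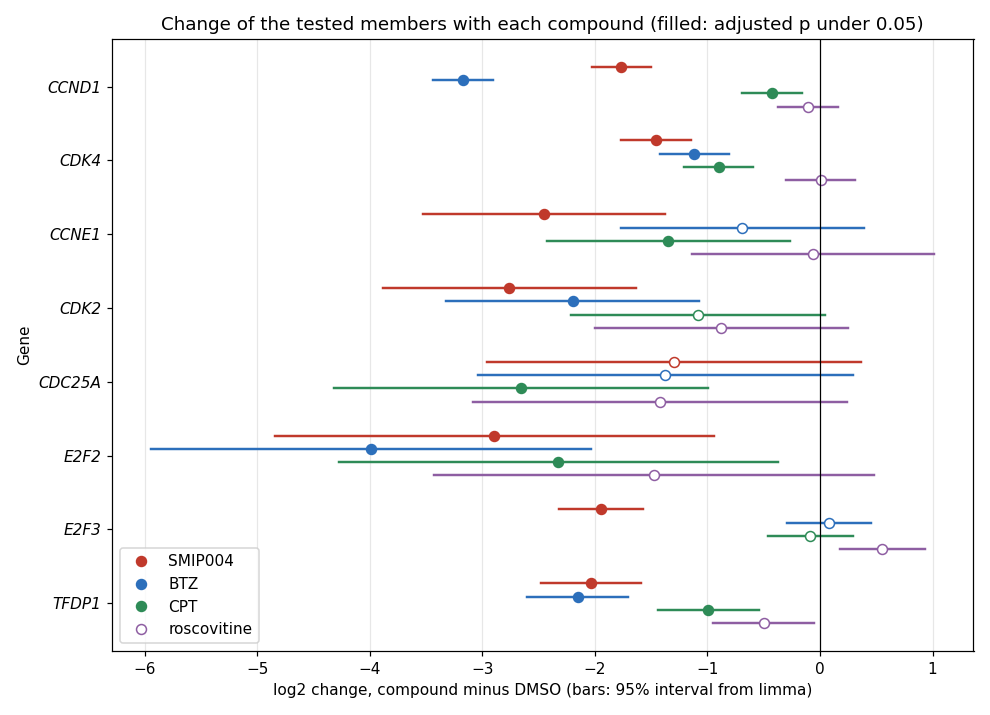
Log2 change of the 8 tested genes with each compound against DMSO, with 95% intervals from limma and n = 2 samples per group; filled points passed at an adjusted p under 0.05. The intervals of CCND1, CDK4, E2F3 and TFDP1 are narrow and those of CCNE1, CDK2, CDC25A and E2F2, whose roscovitine samples differ, are wide.

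Between pairs of compounds, 25 of the 48 combinations of a gene and a pair passed (limma, adjusted over all genes within each pair). SMIP004 and BTZ differed in 3 of the 8 genes, with CCND1 higher and CCNE1 and E2F3 lower in SMIP004 samples, where 49.1% of all genes passed. SMIP004 and CPT differed in 5, CCND1, CDK4, CDK2, E2F3 and TFDP1, all lower in SMIP004 samples, where 65.8% of all genes passed. BTZ and CPT, which share slide 2, differed in CCND1 (-2.75) and TFDP1 (-1.16), both lower in BTZ samples, where 65.6% of all genes passed. In comparisons with roscovitine, 6 genes were lower with SMIP004, 6 with BTZ and 3 with CPT, where 28.3%, 30.2% and 24.5% of all genes passed as lower. CDC25A passed in no pair, and the interval of SMIP004 against CPT, its largest difference (1.36), ran from -0.30 to 3.02. Without the roscovitine samples, 20 of the 24 combinations of the other 3 pairs passed, against 10 with them, where 69.8% of all genes passed between SMIP004 and BTZ, 80.1% between SMIP004 and CPT and 79.5% between BTZ and CPT.

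The 2 roscovitine samples differed in which of these genes were low. Against the mean of DMSO, CCNE1 was 0.80 higher in sample 1 and lay at -0.92 in sample 2, CDK2 at 0.07 and -1.83, CDC25A at 0.00 and -2.83 and E2F2 at 0.18 and -3.13. These are the genes in which sample 2 was low and sample 1 was not, and the samples of no other group differed by more than 0.49 in any of them. CCND1 lay at -0.14 and -0.07 and CDK4 at 0.16 and -0.15 in samples 1 and 2, while TFDP1 lay below DMSO in both (-0.19 and -0.81) and E2F3 above it in both (0.32 and 0.79). With sample 2 alone as the roscovitine group 6 genes passed, all but CCND1 and CDK4, where 56.8% of all genes did. With sample 1 alone 1 of the 8 passed, CCNE1 as higher (limma, adjusted p = 0.0163), where 18.4% of all genes did.

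**Figure D3:**
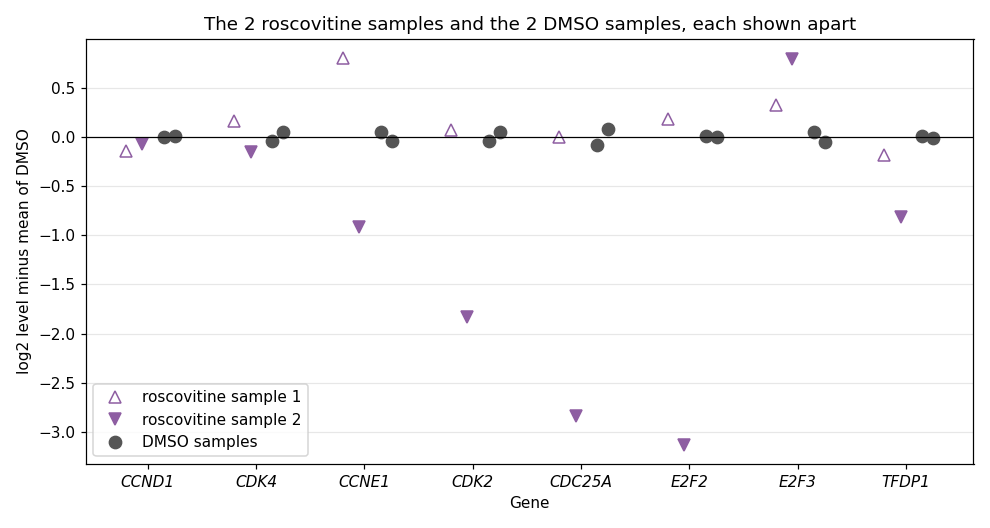
Log2 level of the 8 tested genes minus the mean of DMSO in roscovitine sample 1 (open, upward), roscovitine sample 2 (filled, downward) and the 2 DMSO samples. Sample 2 lies between -3.13 and -0.92 for E2F2, CDC25A, CDK2 and CCNE1, where sample 1 lies between 0.00 and 0.80.

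E2F target genes of G1/S, many of which encode the machinery of DNA replication, mostly fell with SMIP004, BTZ and CPT. Of 33 measured genes 25 fell with SMIP004, 26 with BTZ and 26 with CPT, and none rose (limma, adjusted p). Among all genes 29.9%, 32.8% and 31.7% passed as lower. At an unadjusted p under 0.05 (limma) none of the 33 was higher with SMIP004 or BTZ and 1 was with CPT. The median change of the 33 genes was -2.04, -2.02 and -1.94, beside -0.02, -0.01 and 0 over all genes. The means above DMSO were those of CDC6 (0.94) and EZH2 (0.86) with SMIP004 and ORC1 (0.14) with BTZ. With CPT they were those of PCNA (0.65) and TYMS (0.02), and none of these changes passed. MCM2, a subunit of the replicative helicase, changed by -3.47 with SMIP004 (SE 0.594), -3.03 with BTZ and -2.13 with CPT. GINS2, which joins that helicase, changed by -3.37 (SE 0.639), -3.29 and -2.42. RRM2, the small subunit of ribonucleotide reductase, was at least 11.9-fold lower with SMIP004 and at least 12.9-fold lower with CPT, where it was not above background (limma, adjusted p = 0.0164 and 0.0231). With BTZ it changed by -2.49 and did not pass (limma, adjusted p = 0.107). Without the roscovitine samples 31 fell and 2 rose with SMIP004, 31 fell with BTZ, and 30 fell and 1 rose with CPT. In that fit 75.4%, 77.9% and 76.7% of all genes passed in either direction.

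With roscovitine none of the 33 targets passed (limma, adjusted p) and 11 were lower at an unadjusted p under 0.05, as were 16.3% of all genes. The samples again differed: all 33 lay at least 2-fold below the mean of DMSO in sample 2 and 1 did in sample 1, where 9.54% and 1.18% of all genes did, with medians of -2.06 and -0.02. MCM2 lay at -2.32 in sample 2 and -0.02 in sample 1, and GINS2 at -2.42 and 0.06. In the promoter table, 19 of 32 listed targets (59.4%) hold the E2F motif spelled above in any of their windows, against 3.31% of all promoters. The list was drawn up from known E2F targets.

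**Figure D4:**
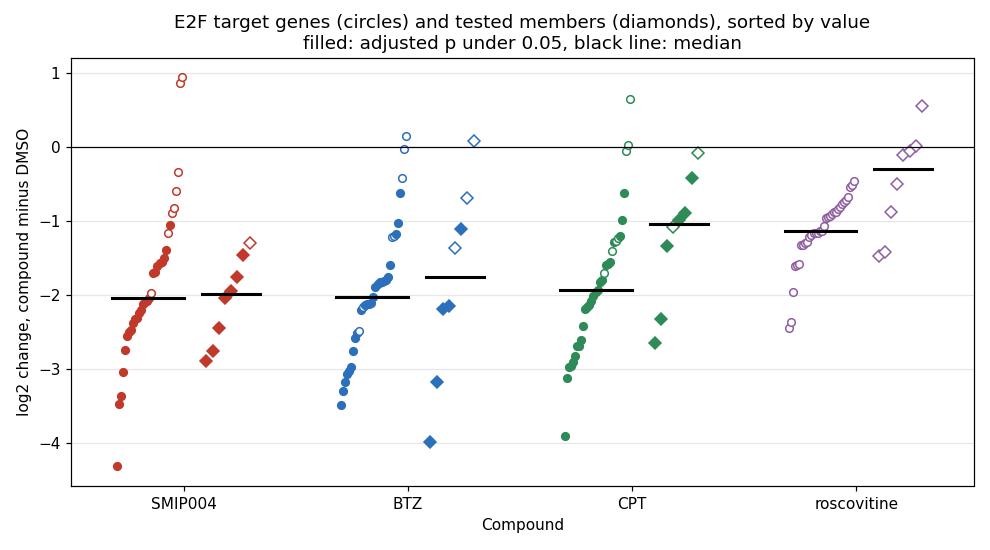
Log2 change of 33 E2F target genes (circles) and the 8 tested genes (diamonds) with each compound against DMSO, sorted by value; black lines are medians and filled points passed at an adjusted p under 0.05. The medians of the targets lie at -2.04, -2.02, -1.94 and -1.14 with SMIP004, BTZ, CPT and roscovitine.

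The neighbouring genes of the pathway are given as counts, to be read against the 58.6%, 64.5%, 63.4% and 7.67% of all genes that passed with SMIP004, BTZ, CPT and roscovitine. Counts without the roscovitine samples are to be read against 75.4% with SMIP004, 77.9% with BTZ and 76.7% with CPT. With all samples fitted, the share that passed with SMIP004 was below that of all genes in each of these lists. The exception was the list of CDK inhibitors, SKP2 and its cofactor. Of 6 other G1 cyclins, kinases and regulators measured, 2 fell and none rose with SMIP004, CDC25B, a phosphatase of the CDC25 family (-1.22, SE 0.155, limma, adjusted p = 0.00033), and CCND3, the gene of cyclin D3 (-0.75, SE 0.238, adjusted p = 0.0255). BTZ lowered both too (-1.81 and -1.60), with 3 of the 6 lower and 2 higher, and CPT lowered 3 and raised 1. With roscovitine CDC25B alone passed (-0.68, limma, adjusted p = 0.0409).

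Of 5 other E2F and DP genes, 1 rose and 1 fell with SMIP004, 2 rose and 2 fell with BTZ, 2 rose and 1 fell with CPT, and none passed with roscovitine, at an unadjusted p under 0.05 either. E2F7, a repressor that itself is an E2F target, was at least 5.02-fold lower with SMIP004 and at least 3.77-fold lower with BTZ, where it was not above background (limma, adjusted p = 3.63e-05 and 3.76e-05). With CPT it rose by 1.07 (limma, adjusted p = 0.00248). E2F6, a repressor without a pocket protein binding domain, rose by 0.38 with SMIP004 (SE 0.117), 1.94 with BTZ and 0.81 with CPT.

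Of 8 pocket protein and MuvB genes, 2 rose and 1 fell with SMIP004, 2 rose and 2 fell with BTZ, 2 rose and 5 fell with CPT, and 1 fell with roscovitine. LIN37, a MuvB subunit, rose by 2.24 with SMIP004 (SE 0.215), 2.04 with BTZ and 1.10 with CPT, and it was detected on 1 of 2 DMSO arrays. RBL1, which encodes the pocket protein p107, was not above background with SMIP004, BTZ or CPT and was at least 1.66-fold, 1.25-fold and 1.8-fold lower. LIN52, another MuvB subunit, rose by 0.33 with SMIP004 (SE 0.11) and 1.30 with BTZ, and was at least 1.23-fold lower with CPT. It too was detected on 1 of 2 DMSO arrays. RB1, the retinoblastoma gene itself, changed by 0.05 with SMIP004 (SE 0.278, limma, adjusted p = 0.901); it was named after its values were seen. Without the roscovitine samples 2 of the 8 fell with SMIP004, and 3 rose and 5 fell with BTZ.

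Of 7 genes of CDK inhibitors, SKP2 and its cofactor, 4 rose and 3 fell with SMIP004. Among those that rose were CDKN1A, the gene of p21 (2.41, SE 0.509), and CDKN2B, the gene of p15 (1.65, SE 0.252, detected on 1 of 2 DMSO arrays). SKP2, named after its values were seen, changed by -0.88 with SMIP004, 1.40 with BTZ and 0.93 with CPT, and each passed. The line overexpresses SKP2, and whether the probe also reads the added copy was not tested. CKS1B, a cofactor of SKP2, rose by 1.11 with SMIP004 (SE 0.351, limma, adjusted p = 0.0261) and fell with BTZ (-2.51, adjusted p = 0.000446) and CPT (-2.12, adjusted p = 0.00126). BTZ raised 3 of the 7 and lowered 3, CPT raised 4 and lowered 2, and roscovitine raised 1, CDKN1A (2.58, limma, adjusted p = 0.033).

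Of 9 genes of the ubiquitin ligases for cyclins D1 and E, 1 rose and 2 fell with SMIP004, 3 rose and 2 fell with BTZ, 2 rose and 3 fell with CPT, and none passed with roscovitine, where 3 had an unadjusted p under 0.05. FBXO4, an F-box protein that targets cyclin D1, rose by 1.79 with SMIP004 (SE 0.309, limma, adjusted p = 0.00159) and fell with BTZ (-1.83) and CPT (-1.28). The ligase core genes RBX1 (-0.73, SE 0.201) and CUL1 (-0.36, SE 0.129) fell with SMIP004, and the median of the 9 genes was 0.02. With SMIP004, 4 rose and 3 fell once the roscovitine samples were left out.

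Of 12 mitogenic regulators of CCND1, 1 rose and 3 fell with SMIP004, 6 rose and 3 fell with BTZ, 7 rose and 3 fell with CPT, and none passed with roscovitine, where 2 had an unadjusted p under 0.05. These counts hold ETS2, as lower with SMIP004 and higher with BTZ, and FOS, as higher with BTZ, which were not above background in either group compared, so that 1 rose and 2 fell with SMIP004 and 4 rose and 3 fell with BTZ among the genes measured there. MYC changed by -3.11 with SMIP004 (SE 0.151, limma, adjusted p = 4.58e-06), -3.04 with BTZ and -2.31 with CPT, and by -0.19 with roscovitine (adjusted p = 0.394). JUN, an AP-1 subunit, rose by 1.80 with SMIP004 (SE 0.366), 3.75 with BTZ and 3.37 with CPT. LEF1, a factor of Wnt signaling, was at least 1.54-fold lower with SMIP004, where it was not above background, as with BTZ, where it was at least 1.16-fold lower. Leaving out the roscovitine samples, and FOS and ETS2, 3 of the 12 rose and 3 fell with SMIP004.

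Across the 10 samples, which share slides and groups, the levels of these genes were described by Pearson's r without a test. The 8 genes correlated with each other at r between -0.081 (E2F3 with CDC25A) and 0.939 (TFDP1 with CDK2). The genes most like CCND1 were C1GALT1C1, a chaperone of O-glycosylation (0.997), FAAP100, a Fanconi anemia core protein (0.992), and CTBP1, a corepressor (0.992). Those most like CDK4 were TMPRSS2, an androgen-regulated protease (0.989), LARGE2, a glycosyltransferase (0.987), and LRRC45, a centrosomal protein (0.985).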

How the data were processed

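The arrays were Illumina HumanRef-8 bead arrays. The authors deposited, per the file headers, the bead-averaged intensity of each probe on each array, without normalization or background subtraction, and a detection p-value for each, computed by their software against negative controls. They also deposited log2 values, quantile-normalized, which served as an alternative. Samples were grouped by title, and the 4 SMIP004 arrays were joined into samples by title and design text, although their descriptions number them otherwise; slides come from the array labels.

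In R 4.3.3, neqc of limma 3.58.1 subtracted a background inferred through the detection p-values, added an offset of 16 and quantile-normalized the arrays. A probe was kept if detected on every array of at least 1 group (11111 probes), and each gene was read by its kept probe of highest mean. Of 24526 probes, 21834 had 1 gene in the platform annotation, and 99.9% of these matched RefSeq. The 10 samples entered 1 limma model with a mean per group (5 residual and 2.95 prior degrees of freedom). No slide term could be fitted beside these groups. For a gene with no detection in a group, a bound (at least N-fold) replaces its fold, in which each array's lowest detected signal, or the probe's own if higher, is taken. Nothing beyond the word biological says how the 2 samples of a group were made, so p-values measure only the spread between these samples, and the number of arrays limits the precision.

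The genes, lists and naming rule (in each list, up to 3 genes of largest change with SMIP004 among those that passed with both samples moving alike) were chosen with earlier results of these data known. List counts without the roscovitine samples, roscovitine samples set singly against DMSO over lists, and counts without genes below background in both groups were added later. The model was tested on simulated data. As alternatives, normalization, filter, use of technical arrays, fitted samples, replicate block and threshold were changed, and each sample was left out in turn. Figures were drawn with matplotlib 3.10.9 in Python 3.11.15. Protein measurements of the study were not analysed here.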

Additional observations from a re-analysis of the deposited data

How the results depend on the processing

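Over 21 alternatives, the changes of the 8 genes with each compound gave 656 values, of which 596 kept their direction and side of the threshold, 30 kept the direction but no longer passed, 23 newly passed and 7 changed sign. With at least 2-fold change and an unadjusted p of 0.05 or less, as the study's threshold, 3 genes passed with CPT in place of 6. Of all genes 34.2% passed so with CPT, in place of 63.4%. Leaving out 1 sample at a time, with the lone sample of a group taken to vary like the others, the genes that passed numbered 6 to 8 with SMIP004, 5 to 7 with BTZ, 2 to 7 with CPT and 0 to 6 with roscovitine, and 18 to 42 combinations of a gene and a pair of compounds passed. Without roscovitine sample 1, 6 genes passed with roscovitine and 39 combinations; without sample 2, 1 gene and 42 combinations. The 7 changes of sign were in values that did not pass with all samples: E2F3 with BTZ (-0.195) and CDK4 with roscovitine (-0.043) when arrays were scaled to 1 median, and changes with roscovitine when 1 sample was left out. These ran from -0.152 to 0.164 for CDK4, turning below 0 without roscovitine sample 1 or DMSO sample 1 (-0.042). Without roscovitine sample 2 they turned above 0 in ranges of -0.92 to 0.798 for CCNE1, -1.826 to 0.069 for CDK2 and -3.127 to 0.179 for E2F2. The causes were not tested. The share of all genes that passed also changed with the sample left out. It rose in every comparison without either roscovitine sample and fell when any other sample was left out. The counts of genes and combinations above are to be read against this, and not as particular to the 8 genes.

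The labels do not say whether the replicate numbers of the titles pair the samples. The deviations of same-numbered samples correlated between -0.187 and 0.093, which with 2 samples per group cannot decide it. With the replicate number as a block, 7, 5, 6 and 0 genes passed with SMIP004, BTZ, CPT and roscovitine and 24 combinations passed. Of all genes 57.4%, 63.5%, 62% and 3.78% passed with these compounds under the block. Between SMIP004 and BTZ, CPT or roscovitine 47.3%, 64.4% and 54.4% of all genes passed under it. The share was 64.5% between BTZ and CPT, 58.8% between BTZ and roscovitine and 46.5% between CPT and roscovitine. No call against DMSO changed, and between compounds CCND1 no longer passed for CPT against roscovitine (limma, adjusted p = 0.0622, against 0.0483 without the block). For all 6 pairs at once no value exists without the roscovitine samples. CCNE2, E2F1 and the second probes of CCNE1 and CDC25A were limited by signal over background.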
